A study of Homo sapiens with 24 samples.

Results

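A set of 6 genes were followed across sensory neuron cultures treated with cytokines. *MRPS6*, *SLC5A3* and *KCNE2* lie side by side on chromosome 21 and form the locus group, and *NFAT5*, *AKR1B1* and *SLC6A6* form the osmolyte group. They were picked by symbol, and each is 1 of 36468 entries of the count table. The 3 locus genes were chosen because their counts were lower under TGF-β, so their values are a description and carry no test. The other 3 were named for their known function.

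Cultures came from 1 human embryonic stem cell line, H9 (written H9WAO9 by the submitters, wild type), taken through vagal neural crest to sensory neurons. In each of 6 differentiation batches, 1 culture received vehicle (0.1% bovine serum albumin in PBS), 1 received TGF-β at 2 ng/ml, 1 received IL-4 at 10 ng/ml with IL-13 at 3 ng/ml, and 1 received IL-6, whose dose is not given in the sources used here. Exposure to TGF-β and to IL-4 + IL-13 lasted 5 days. Polyadenylated RNA of the whole culture was sequenced, 24 libraries in all and 6 per group. The cultures are mixed, so fewer cells of a type and less RNA per cell cannot be told apart.

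Cells take up or make small organic solutes, called osmolytes, when the fluid around them becomes more concentrated. NFAT5 is the transcription factor of this response, and it switches on *SLC5A3*, a sodium-dependent importer of myo-inositol, *SLC6A6*, the taurine importer, and *AKR1B1*, the aldose reductase that turns glucose into sorbitol. *MRPS6* encodes a protein of the small subunit of the mitochondrial ribosome. *KCNE2* encodes a small membrane protein that associates with potassium channels, including KCNQ1 and HERG, and is known from heart, stomach and choroid plexus epithelium.

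In GRCh38.p14, *MRPS6* spans chromosome 21 from 34073578 to 34143030 and *SLC5A3* from 34073578 to 34106260, both on the plus strand. Their MANE Select transcripts in GENCODE begin with the same first exon, 34073578 to 34073745, of 168 bases. The remainder of *SLC5A3* is a single exon, 34094863 to 34106260, which lies inside the first intron of *MRPS6*, whose own second exon starts at 34125341. *KCNE2* spans 34364006 to 34371381 on the same strand, 221.0 kb beyond the end of *MRPS6*. *NFAT5* is on chromosome 16 (69565966 to 69704654), *AKR1B1* on chromosome 7 (134442350 to 134459239, minus strand) and *SLC6A6* on chromosome 3 (14402576 to 14489349).

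The sequences are given to show that *MRPS6* and *SLC5A3* start from the same promoter, that their messages part at the end of the same exon, and that the start of *KCNE2* is of a different make. Promoters are the 250 bases before the start in RefSeq (GRCh38.p14, plus strand), with every GGGCGG, the GC box, or its complement CCGCCC in capitals. The splice sequences are 24 intron bases each, with the GT or AG at the intron's end in capitals.
MRPS6 and SLC5A3, chr21:34073328-34073577: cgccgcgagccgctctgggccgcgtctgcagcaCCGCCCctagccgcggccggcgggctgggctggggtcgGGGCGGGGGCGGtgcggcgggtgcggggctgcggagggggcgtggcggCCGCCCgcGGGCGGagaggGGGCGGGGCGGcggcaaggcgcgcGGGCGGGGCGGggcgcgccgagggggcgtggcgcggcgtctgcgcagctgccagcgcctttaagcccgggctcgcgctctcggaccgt
KCNE2, chr21:34363756-34364005: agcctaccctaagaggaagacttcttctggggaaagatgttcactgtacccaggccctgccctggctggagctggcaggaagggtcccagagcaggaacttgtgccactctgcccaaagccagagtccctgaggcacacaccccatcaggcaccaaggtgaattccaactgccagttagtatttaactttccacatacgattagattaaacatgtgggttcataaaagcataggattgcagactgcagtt
Donor after the shared exon, chr21:34073746-34073769: GTaagtgaccttccctcagagccg
Acceptor of SLC5A3 exon 2, chr21:34094839-34094862: tcttttgtctctgctgccttgcAG
Acceptor of MRPS6 exon 2, chr21:34125317-34125340: ctttaaaaacacaaacaaaaacAG

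The shared promoter was 84.8% G and C, against 50.8% in the *KCNE2* promoter. It held 9 GC boxes, 7 forward and 2 reverse, whereas the *KCNE2* window held 0, and 42.6% of the 35116 promoter windows of this length held at least 1. The letters CAGAC, the short SMAD-binding element, were found 2 times in the shared window and 1 time in that of *KCNE2*, against 38.0% of all windows with at least 1 match. The tonicity-responsive enhancer motif (TonE), the site NFAT5 binds, was found in neither window, and 4.2% of all windows held it. The core GGAAA, which is part of TonE, had 0 matches in the shared window and 2 in the *KCNE2* window, and 55.6% of windows held it. All searches covered both strands, and a match or its lack in these 250 bases is a description of letters only.

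Libraries held between 33342682 and 39817784 counted reads, with a median of 35775126. All 6 neuron markers examined, *TUBB3*, *UCHL1*, *STMN2*, *PRPH*, *SLC17A6* and *SCN9A*, were detected in every library, but batch 1 stood apart: the summed neuron markers of its 4 libraries were 1050 to 1910 CPM (counts scaled to a library size of 1000000), and those of the other batches 2330 to 4920 CPM. The vehicle library of batch 2 stood apart too. After the group means were taken off, its mean correlation with the treated libraries of its own batch was 0.035, and with those of batch 4 it was 0.427. Fold changes of the followed genes without batch 1 or batch 2 are therefore given where they bear on a result.

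All 3 locus genes had lower counts after TGF-β than in the vehicle culture of the same batch, in 6 of 6 batches. The fitted ratios were 0.686 for *MRPS6*, 0.595 for *SLC5A3* and 0.551 for *KCNE2*, that is changes of -31.4%, -40.5% and -44.9%. *NFAT5*, *AKR1B1* and *SLC6A6* had mixed directions over the batches and fitted ratios of 0.964, 0.997 and 0.821.

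For *MRPS6*, normalized read counts (counts divided by DESeq2's size factors) in vehicle ranged from 2130 to 4989 with a median of 3158. Under TGF-β the lowest was 1603, the median 1970.2 and the highest 3563. IL-4 + IL-13 libraries lay between 2489 and 5080, with a median of 2912, and IL-6 libraries between 2409.6 and 4535, with a median of 3131. Ranges of all 4 groups overlapped, since batches 1 and 6 had the highest value in every group. Within batches 1 to 6 the log2 difference from vehicle under TGF-β was -0.49, -0.51, -0.56, -0.41, -0.87 and -0.47. Batch 5 was the lowest of these, and the other 5 lay between -0.56 and -0.41. The fitted log2 fold change was -0.54 (SE 0.07).

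*SLC5A3* had between 5278 and 17874 normalized counts in vehicle, with a median of 8862. TGF-β libraries had 3533 to 12921, with a median of 4354, IL-4 + IL-13 libraries 5814 to 14858 (median 6729), and IL-6 libraries 4951 to 15876 (median 7140.3). The spread between batches was wide, with batches 1 and 6 highest in each group. The log2 differences under TGF-β were -0.42, -0.68, -1.23, -0.45, -1.22 and -0.47 in batches 1 to 6. Batches 3 and 5 thus differed from vehicle by more than 1 on the log2 scale, and the other 4 by less. Its fitted log2 fold change was -0.75 (SE 0.13), the widest error of the locus genes.

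*KCNE2* was the least abundant, with raw counts of 81 to 484 in vehicle and 32 to 267 under TGF-β. Normalized, vehicle ranged from 74.2 to 420.0 (median 127), TGF-β from 35.2 to 260.4 (median 68.4), IL-4 + IL-13 from 57.1 to 323 (median 96.8), and IL-6 from 51.7 to 342 (median 109.6). Batches 1 and 6 again held the highest values in every group. In batches 1 to 6, TGF-β differed from vehicle by -0.90, -0.66, -0.76, -1.05, -1.10 and -0.69 on the log2 scale. No batch came near 0, and the fitted log2 fold change was -0.86 (SE 0.12).

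**Figure D1:**
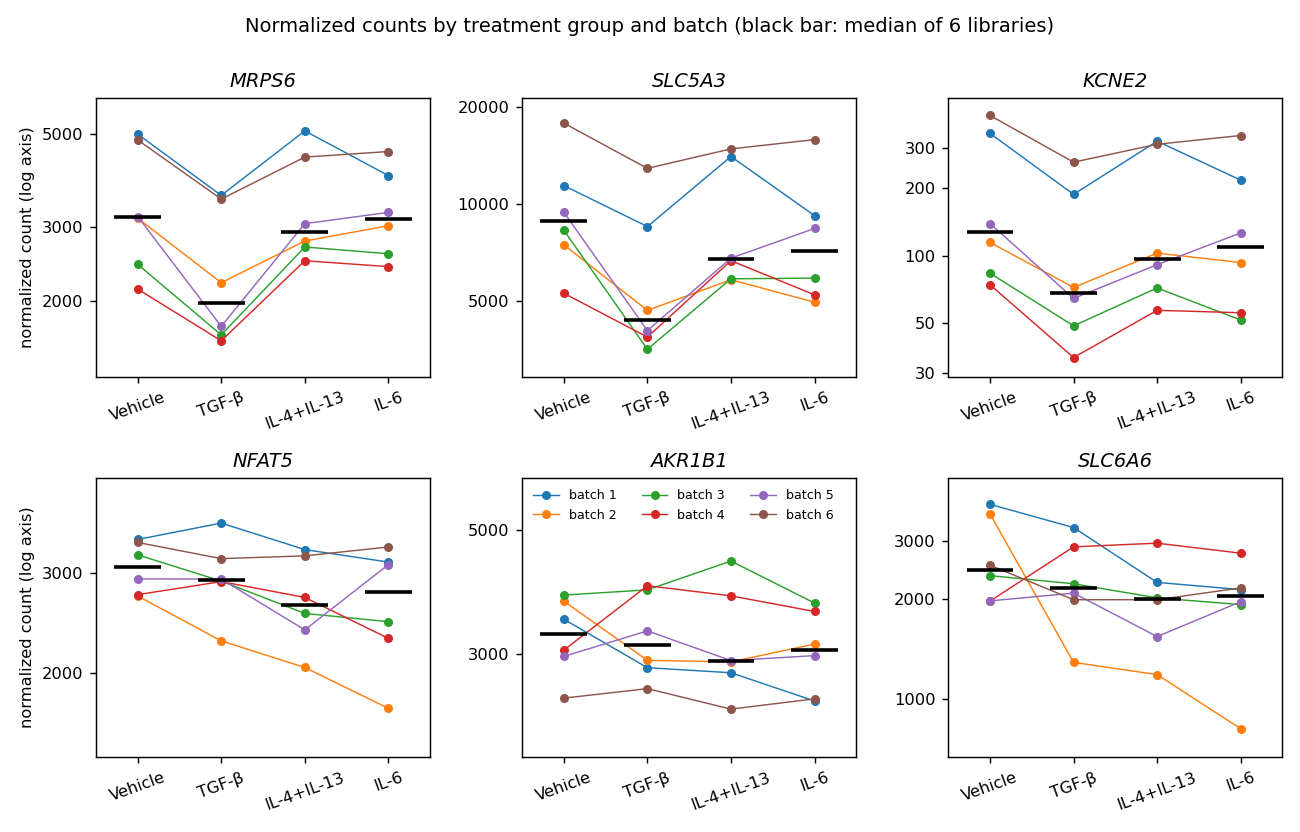
Normalized counts (log axis) of the 6 genes in the 4 treatment groups, with 1 line per batch and the median of 6 libraries as a black bar. For *MRPS6*, *SLC5A3* and *KCNE2* every batch drops from vehicle to TGF-β, while *SLC6A6* drops steeply in batch 2 under every treatment.

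By edgeR, none of the 6 genes was called at an adjusted p under 0.05 with a log2 fold change beyond 1, for TGF-β or for any other comparison. Called genes made up 0.0209% of the 28701 tested for TGF-β, 0.251% of those tested for IL-4 + IL-13 and 0.895% for TGF-β set directly against IL-4 + IL-13. By edgeR's adjusted p alone, *MRPS6* and *KCNE2* were lower, where 0.0348% of all genes were. Each kept this in 6 of 12 alternatives, and lost it without the batch term and when batch 1, 3, 4, 5 or 6 was left out. *SLC5A3* passed in 3 of 12, DESeq2 among them. Lower in all 6 batches were the 3 locus genes, against 2.56% of all genes. Since the locus genes were chosen from this contrast, nothing is read from these counts. The median log2 fold change over all genes tested was -0.0026.

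Fold changes were also fitted without each batch that stood apart. The locus genes were chosen for being lower in this contrast, so these values describe size only and are no check. Without batch 1 the log2 fold changes under TGF-β were -0.55 for *MRPS6*, -0.81 for *SLC5A3* and -0.85 for *KCNE2*. Without batch 2 they were -0.56, -0.77 and -0.90.

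Under IL-4 + IL-13, *MRPS6* had a log2 fold change of 0.01 (SE 0.07), with 3 of 6 batches lower and 3 higher. *SLC5A3* had -0.16 (SE 0.13), with batches 1 and 4 higher than vehicle by 0.30 and 0.34 and the other 4 lower. *KCNE2* was lower in 6 of 6 batches, by between 0.11 and 0.60 on the log2 scale, with a fitted -0.31 (SE 0.12). Lower in every batch were 1.82% of all genes in this comparison.

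Under IL-6 the log2 fold changes were -0.03 (SE 0.08) for *MRPS6*, -0.29 (SE 0.12) for *SLC5A3* and -0.41 (SE 0.12) for *KCNE2*. *SLC5A3* and *KCNE2* were lower in 6 of 6 batches, as were 1.05% of all genes, and *MRPS6* in 3. All comparisons with vehicle share the vehicle libraries, so the lower values of *KCNE2* in each of them are not separate observations. By edgeR's adjusted p, 0 genes of the whole table were called under IL-6 (0% of 29377), with 1400 (4.77%) at an unadjusted p under 0.05 and 120 (0.408%) called by DESeq2.

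Set directly against IL-4 + IL-13 within batches, TGF-β gave log2 fold changes of -0.56 (SE 0.07) for *MRPS6*, -0.59 (SE 0.13) for *SLC5A3* and -0.55 (SE 0.12) for *KCNE2*. Each was lower in 6 of 6 batches, and so were 5.45% of all genes. This contrast uses the same TGF-β libraries that chose the genes.

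**Figure D2:**
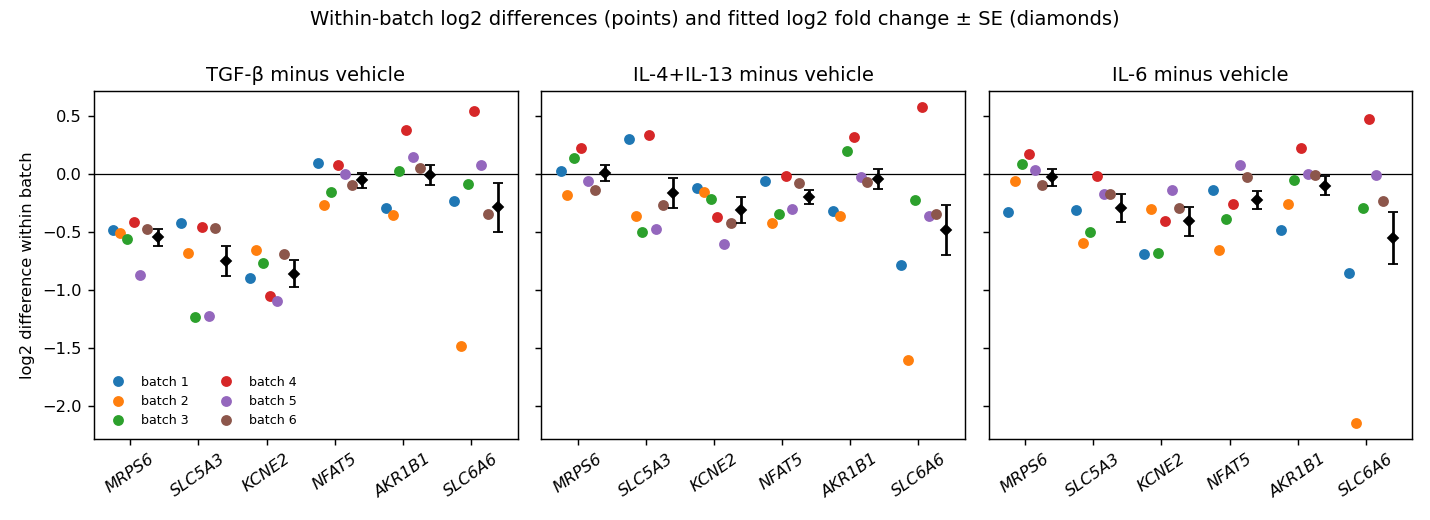
Log2 difference of normalized counts from the vehicle culture of the same batch (points, 1 per batch) with the fitted log2 fold change and its SE (diamonds). The 3 locus genes lie below 0 in every batch under TGF-β, and the *SLC6A6* point of batch 2 lies at -1.49, -1.61 and -2.15 under the 3 treatments.

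Counts cannot be compared between genes without their lengths, so levels were also expressed as CPM per kilobase of the MANE Select transcript (11566 bases for *SLC5A3*, 931 for *MRPS6* and 1061 for *KCNE2*). On that scale the vehicle medians were 95.8 for *MRPS6*, 21.3 for *SLC5A3* and 3.38 for *KCNE2*. *AKR1B1* had 65.3, *SLC6A6* 10.5 and *NFAT5* 6.43. In raw counts *SLC5A3* exceeded *MRPS6* in all 24 libraries, with a median of 2.73 *SLC5A3* reads per *MRPS6* read in vehicle and 2.36 under TGF-β. This ratio was lower than in vehicle in 4 of 6 batches under TGF-β, in 4 under IL-4 + IL-13 and in 5 under IL-6. *KCNE2* had 0.0401 reads per *MRPS6* read in vehicle at the median and 0.0349 under TGF-β, and this ratio was lower than in vehicle in 6 of 6 batches under TGF-β, 5 under IL-4 + IL-13 and 6 under IL-6. Per *SLC5A3* read, *KCNE2* had 0.015 in vehicle at the median and 0.0158 under TGF-β, with 3 of 6 batches lower.

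The first exon belongs to both transcripts and makes up 168 of the 931 bases of *MRPS6* and of the 11566 of *SLC5A3*. How reads in it were assigned is not given in the sources used here, nor is the strandedness of the libraries, and reads from the first intron of *MRPS6* would fall on *SLC5A3* where it lies inside. The counts of both genes are uncertain to that extent. RefSeq also places a long non-coding RNA, *LOC105372791* (34353006 to 34375362), over all of *KCNE2*. It has no entry in the table used here.

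After the batch means were taken off, the locus genes varied together over the 24 libraries, with a Pearson r of 0.87 for *MRPS6* with *SLC5A3*, 0.85 for *SLC5A3* with *KCNE2* and 0.81 for *MRPS6* with *KCNE2*. Against the osmolyte genes their r ran from -0.20 to 0.23. Within the osmolyte group, r was 0.74 for *NFAT5* with *SLC6A6*, 0.68 for *AKR1B1* with *SLC6A6* and 0.30 for *NFAT5* with *AKR1B1*. The vehicle library of batch 2, which stood apart, bears on these values. Within that batch it was the highest for each of these genes, with 3609.9 normalized *SLC6A6* counts against 813 to 1288.5 in its treated libraries. No r without batch 2 is given, here or for the most similar patterns. These libraries share batches, treatments and depth, and the locus genes were chosen for being lower in the TGF-β libraries among them, which by itself raises r among the 3. The correlations are descriptions.

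Among 13240 genes with a mean of at least 100 counts, those whose batch-centred pattern was most like that of *MRPS6* were *FRZB*, which encodes a secreted Wnt antagonist (r = 0.95), *CALML4* (0.94) and *FMO1* (0.93), a flavin monooxygenase that forms taurine from hypotaurine. For *SLC5A3* they were *FRZB* (0.89), *ZNF106* (0.89) and *OXTR*, the oxytocin receptor gene (0.88). *KCNE2* was most like *SLC2A5*, the fructose transporter gene (0.85), and then its neighbours *SLC5A3* and *MRPS6*. *SLC2A5* was called as lower under TGF-β, as were 0.0139% of all genes, at 0.411 of vehicle (adjusted p = 0.0327, edgeR), and *FRZB*, at 0.531, was not (adjusted p = 0.0575). Both were picked for patterns like those of genes chosen as lower under TGF-β. Their lower values there follow in part from that choice, and nothing is read from them. For *SLC6A6* the nearest patterns were those of *PI4KA* (0.97), *MROH1* (0.96) and *WHRN* (0.96). *NFAT5* was nearest to *ARHGEF12* (0.89), *HUWE1* (0.88) and *DST* (0.86), and *AKR1B1* to *ZFYVE27* (0.88), *HDAC5* (0.86) and *RNASEK* (0.85).

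*NFAT5* ranged from 2733 to 3436 normalized counts in vehicle, with a median of 3078. TGF-β libraries lay between 2279 and 3673 with a median of 2915, IL-4 + IL-13 libraries between 2046 and 3298 with a median of 2632, and IL-6 libraries between 1734 and 3333 with a median of 2783. All 4 ranges overlapped, and batch 2 was the lowest in each group. The log2 fold change of *NFAT5* was -0.05 (SE 0.06, adjusted p = 1.0, edgeR) under TGF-β and -0.19 (SE 0.06, adjusted p = 0.398) under IL-4 + IL-13, where 6 of 6 batches were lower. Under IL-6 it was -0.22 (SE 0.08, adjusted p = 0.85) with 5 of 6 batches lower, and -0.14 without batch 2. None passed the test.

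*AKR1B1* had 2505 to 3830 normalized counts in vehicle (median 3259.5), 2605 to 3980 under TGF-β (median 3115.5), 2394.5 to 4405 under IL-4 + IL-13 (median 2916.5) and 2476 to 3706 under IL-6 (median 3057). The groups overlapped almost wholly. Batches 1 and 2 were lower than vehicle under each treatment and batch 4 was higher under each, by 0.38, 0.32 and 0.23 on the log2 scale. The fitted log2 fold changes were -0.004 (SE 0.09), -0.04 (SE 0.09) and -0.10 (SE 0.08), with edgeR's adjusted p at 1.0, 0.957 and 0.851. Under TGF-β and IL-4 + IL-13 the sign turned when batch 1 was left out, to 0.06 and 0.009, and when batch 2 was, to 0.06 and 0.03.

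*SLC6A6* ranged from 1972 to 3859 normalized counts in vehicle (median 2441), from 1288.5 to 3285 under TGF-β (median 2154), from 1184 to 2947 under IL-4 + IL-13 (median 2003) and from 813 to 2749 under IL-6 (median 2049). Batch 2 was the lowest library of every treated group, while its vehicle library, at 3609.9, was among the highest 2 of its group. Log2 fold changes were -0.29 (SE 0.21) under TGF-β, -0.48 (SE 0.21) in the IL-4 + IL-13 group and -0.55 (SE 0.23) under IL-6, with edgeR's adjusted p at 0.985, 0.649 and 0.85. Without batch 2 they were -0.03, -0.22 and -0.20. Batch 4 was higher than vehicle under each treatment, by 0.54, 0.58 and 0.48.

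The 10 other genes that NFAT5 is known to switch on, or that handle osmolytes, were examined as a list. None was called by edgeR in any comparison with vehicle, where 0% to 0.251% of all genes were. DESeq2 called 2 for TGF-β and 1 for IL-4 + IL-13, among 90 and 170 genes that it called of all 28701. At an unadjusted p under 0.05, 5 of the 10 were lower under TGF-β, where 3.88% of all genes were, 4 under IL-4 + IL-13 (3.55%) and 4 under IL-6 (2.44%), and 0 were higher. Their median log2 fold changes were -0.26, -0.26 and -0.21, against medians over all genes of -0.0026, -0.0008 and -0.0133. By DESeq2's adjusted p, 3, 3 and 0 of them were lower, as were 0.735%, 0.592% and 0.266% of all genes. All 3 comparisons share the vehicle libraries, that of batch 2 among them, so these counts are not separate observations. Fold changes of this list without batch 1 or batch 2 are not given. *S100A4*, a calcium-binding protein gene, had the smallest p, with log2 fold changes of -1.17 (SE 0.20, adjusted p = 0.0575, edgeR) under TGF-β and -1.02 (SE 0.20, adjusted p = 0.0513) under IL-4 + IL-13, and was lower in 6 of 6 batches in both. *PNPLA6*, whose enzyme releases the osmolyte glycerophosphocholine, had -0.35 (SE 0.09, adjusted p = 0.258) under TGF-β and was lower in 6 of 6 batches. *SLC38A2*, a neutral amino acid importer, had -0.05 (SE 0.07, adjusted p = 1.0) under TGF-β and -0.25 (SE 0.07, adjusted p = 0.278) under IL-4 + IL-13.

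Of 8 genes of inositol supply and turnover, none was called by edgeR in any comparison, where 0% to 0.895% of all genes were. *ISYNA1*, the synthase that makes inositol from glucose 6-phosphate, had a log2 fold change of -0.21 (SE 0.07, adjusted p = 0.558, edgeR) under TGF-β. It was lower in 6 of 6 batches, as were 2.56% of all genes. It was the only 1 of the 8 lower at an unadjusted p under 0.05 under TGF-β, where 3.88% of all genes were. *IMPA2*, an inositol monophosphatase, had -0.43 (SE 0.20, adjusted p = 0.837), and *INPP1*, an inositol polyphosphate phosphatase, had -0.20 (SE 0.16, adjusted p = 0.993). The list's median was -0.01 under TGF-β.

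Among 8 genes of sorbitol and taurine handling, none was called against vehicle by edgeR, where 0% to 0.251% of all genes were. DESeq2 called 1, *FMO1*, under TGF-β (adjusted p = 9.08e-05), among 90 genes that it called of all 28701. *FMO1* had a log2 fold change of -1.38 (SE 0.26, adjusted p = 0.0828, edgeR) under TGF-β and was lower in 6 of 6 batches, but had -0.08 under IL-4 + IL-13 and 0.08 under IL-6. In the direct comparison of TGF-β with IL-4 + IL-13 it was called as lower, at -1.30 (SE 0.26, adjusted p = 0.0194), where 0.547% of all genes were. *CDO1*, the cysteine dioxygenase at the start of taurine synthesis, had -0.38 (SE 0.09, adjusted p = 0.199) under TGF-β and 0.33 (SE 0.09, adjusted p = 0.272) under IL-4 + IL-13, with 6 of 6 batches lower and 6 of 6 higher. Its direct difference was -0.71 (SE 0.09, adjusted p = 0.00165), which passed the adjusted p, as 1.16% of all genes did in this direction, but not the fold threshold. *SORD*, the sorbitol dehydrogenase, had 0.11 (SE 0.09) under TGF-β and 0.28 (SE 0.09, adjusted p = 0.413) under IL-4 + IL-13, and *ADO*, another thiol dioxygenase, had 0.05 and -0.007.

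Cell volume genes, 13 channels, chloride cotransporters and their kinases, gave 0 calls by edgeR in any comparison, where 0% to 0.895% of all genes were called. *SLC12A2*, the sodium-potassium-chloride cotransporter NKCC1, had a log2 fold change of -0.35 (SE 0.10, adjusted p = 0.325, edgeR) under TGF-β, and the direct difference from IL-4 + IL-13 was -0.47 (SE 0.10, adjusted p = 0.0249). *LRRC8C*, a subunit of the volume-regulated anion channel, had -0.39 (SE 0.13, adjusted p = 0.49) under TGF-β. The kinase gene *OXSR1* had -0.11 (SE 0.05, adjusted p = 0.639) under IL-4 + IL-13.

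In all, 30 genes of the mitochondrial small ribosomal subunit other than *MRPS6* were looked up and 29 were tested. Under TGF-β their log2 fold changes lay between -0.07 and 0.13 with a median of 0.008, and 0 of 29 had an unadjusted p under 0.05 in either direction, where 6.08% of all genes did. *MRPS6*, at -0.54, lay outside that range, but it was chosen for being lower in this contrast. Nothing is read from that gap. Under IL-4 + IL-13 the range was -0.03 to 0.20, with 3 higher at an unadjusted p under 0.05 (3.92% of all genes), and under IL-6 it was -0.01 to 0.31, with 1 higher (2.32%). *MRPS26* had 0.20 (SE 0.07, adjusted p = 0.433, edgeR) and *CHCHD1* 0.19 (SE 0.07, adjusted p = 0.584) under IL-4 + IL-13, and *MRPS21* had 0.11 (SE 0.05, adjusted p = 0.85) under IL-6.

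None of 15 potassium and HCN channel genes of the KCNE2 family or its partner subunits was called by edgeR in any comparison, where 0% to 0.895% of all genes were. *KCNE1* had a log2 fold change of -0.88 (SE 0.39, adjusted p = 0.795, edgeR) under TGF-β and was lower in 6 of 6 batches, as were 2.56% of all genes. Its values were 0.03 and -0.12 under the other treatments. *KCNQ5* had -0.56 (SE 0.25, adjusted p = 0.643) under IL-4 + IL-13, and *KCND3* -0.29 (SE 0.14, adjusted p = 0.85) under IL-6.

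**Figure D3:**
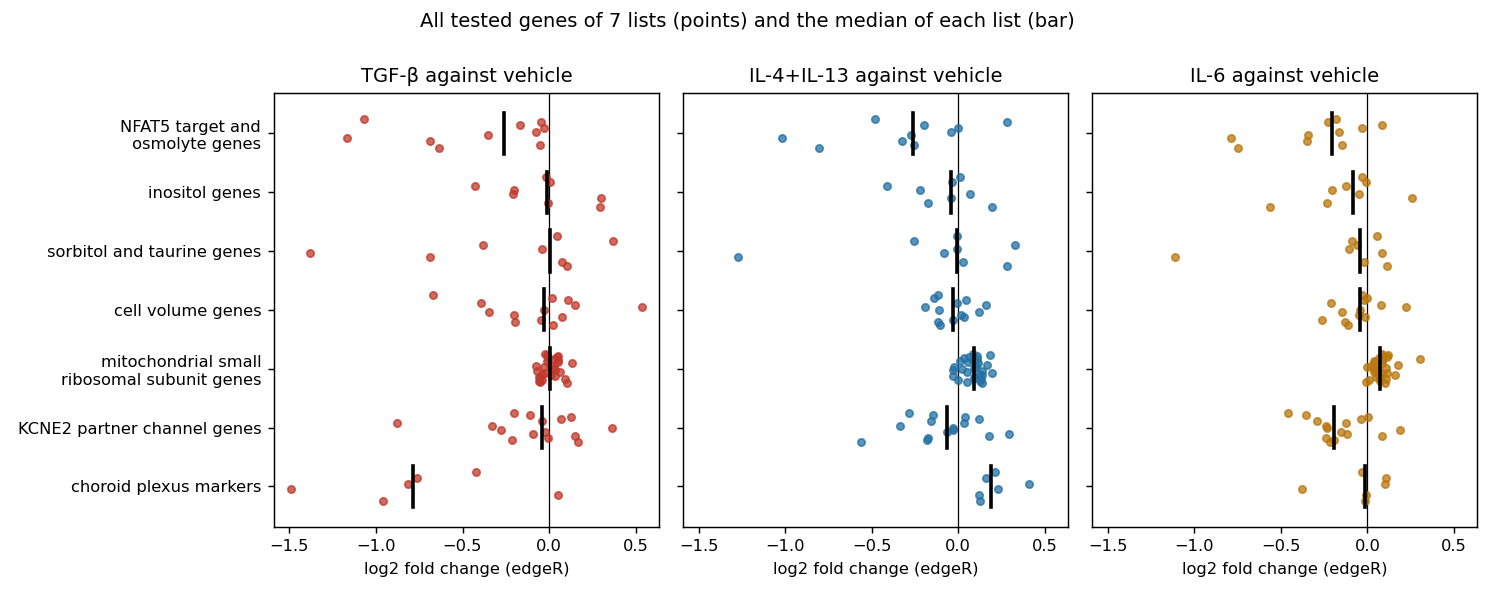
Fitted log2 fold change against vehicle for all tested genes of 7 lists (points) with the list median (bar). Under TGF-β the 29 mitochondrial ribosomal genes lie between -0.07 and 0.13, the NFAT5 target list has a median of -0.26 and the choroid plexus markers one of -0.79.

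Of 22 named neighbours within about 1 Mb of the shared start, 20 had an entry and were tested. None was called against vehicle by edgeR, where 0% to 0.251% of all genes were. Under TGF-β their median log2 fold change was -0.03. *ATP5PO*, the nearest tested gene upstream, had -0.02 (SE 0.06, adjusted p = 1.0, edgeR), and *SMIM11*, which adjoins *KCNE2*, had -0.16 (SE 0.18, adjusted p = 1.0). Both closest neighbours thus lay within their errors of 0. The 3 locus genes between them were chosen for being lower in this contrast, so the gap to these neighbours follows in part from that choice. Farther out, *KCNE1* at 373.1 kb had -0.88 and *CLIC6*, a chloride channel gene at 595.4 kb, had -0.42 (SE 0.18, adjusted p = 0.73). Each was lower in 6 of 6 batches, as were 2.56% of all genes. *KCNE1* is also in the channel list and *CLIC6* among the choroid plexus markers, and these are the same values, not separate observations. *RUNX1*, a transcription factor gene at 714.2 kb, had 1.08 (SE 0.26) under TGF-β, with an adjusted p of 0.199 by edgeR and 0.00798 by DESeq2. DESeq2 called it, among 90 genes of the whole table. Under IL-4 + IL-13 *RUNX1* had -0.88 (SE 0.26, adjusted p = 0.344, edgeR). Its direct difference of 1.96 (SE 0.26, adjusted p = 0.00204) was the 1 call among the neighbours, where 0.348% of all genes were called as higher. *CRYZL1* had 0.08 under TGF-β, 0.18 under IL-4 + IL-13 and 0.21 under IL-6.

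**Figure D4:**
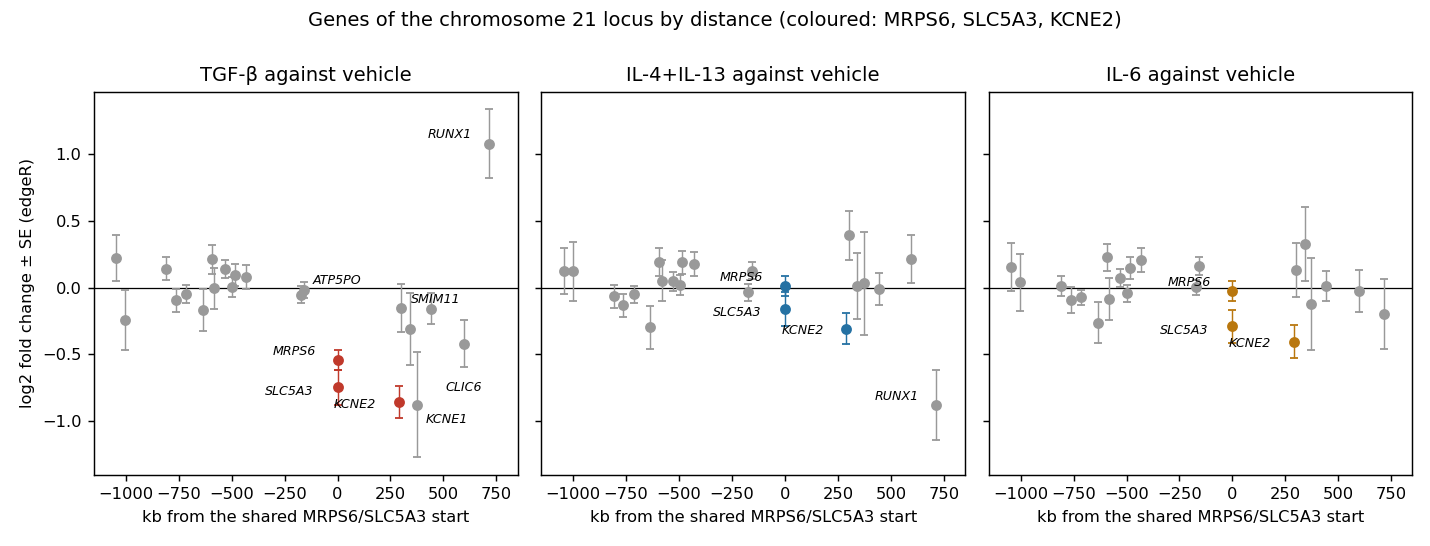
Log2 fold change with SE of the 3 locus genes (coloured) and 20 neighbours (grey) by distance in kb from the shared start of *MRPS6* and *SLC5A3*, measured to the nearest edge of each gene. Under TGF-β the coloured genes lie at -0.54 to -0.86, the contrast they were chosen from, and *ATP5PO* and *SMIM11* on either side lie near 0.

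*KCNE2* is a known gene of the choroid plexus, the epithelium that makes cerebrospinal fluid, and markers of that tissue were present in the cultures. None of 6 such markers, *TTR*, *FOLR1*, *KL*, *OTX2*, *KCNJ13* and *CLIC6*, was at 0 in any library, and *TTR*, the transthyretin gene, had between 12054 and 811781 counts. Their summed level ranged from 1360 to 22500 CPM in vehicle, from 541 to 15500 under TGF-β, from 1430 to 17100 under IL-4 + IL-13 and from 1420 to 18100 under IL-6. Under TGF-β it was lower than vehicle in 6 of 6 batches, and under the other treatments in 4. *TTR* made up most of this sum, with a mean of 210036 counts, and *CLIC6* came next with 12880. Under IL-4 + IL-13 batch 5 was barely lower in sum, with 6570 CPM against 6580. The fitted log2 fold changes of all 6 markers were above 0 there, from 0.12 to 0.41. Under IL-6 they ran from -0.38 to 0.11. At an unadjusted p under 0.05, 5 of the 6 markers were lower under TGF-β (3.88% of all genes), 0 passed edgeR's adjusted p (0.0348%) and 2 passed that of DESeq2 (0.735%). Under TGF-β *KL* had a log2 fold change of -1.49, *TTR* -0.96, *KCNJ13* -0.82, *FOLR1* -0.76, *CLIC6* -0.42 and *OTX2* 0.05. In the direct comparison of TGF-β with IL-4 + IL-13, 2 of the 6 were lower by edgeR's adjusted p, as were 1.16% of all genes. Of these, 1 was called, *KL*, at -1.72 (adjusted p = 0.00716, edgeR), where 0.547% of all genes were called as lower. In vehicle the batches with the highest marker sums, batch 1 with 22500 CPM and batch 6 with 9920, were also those with the highest *KCNE2*, *SLC5A3* and *MRPS6*. In batch 6 the sum was 9920 CPM in vehicle and 8390 under TGF-β, and in batch 3 it was 2020 and 541. The name of this list does not establish a cell type. The part of cells with these markers in the lower locus genes was not tested.

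**Figure D5:**
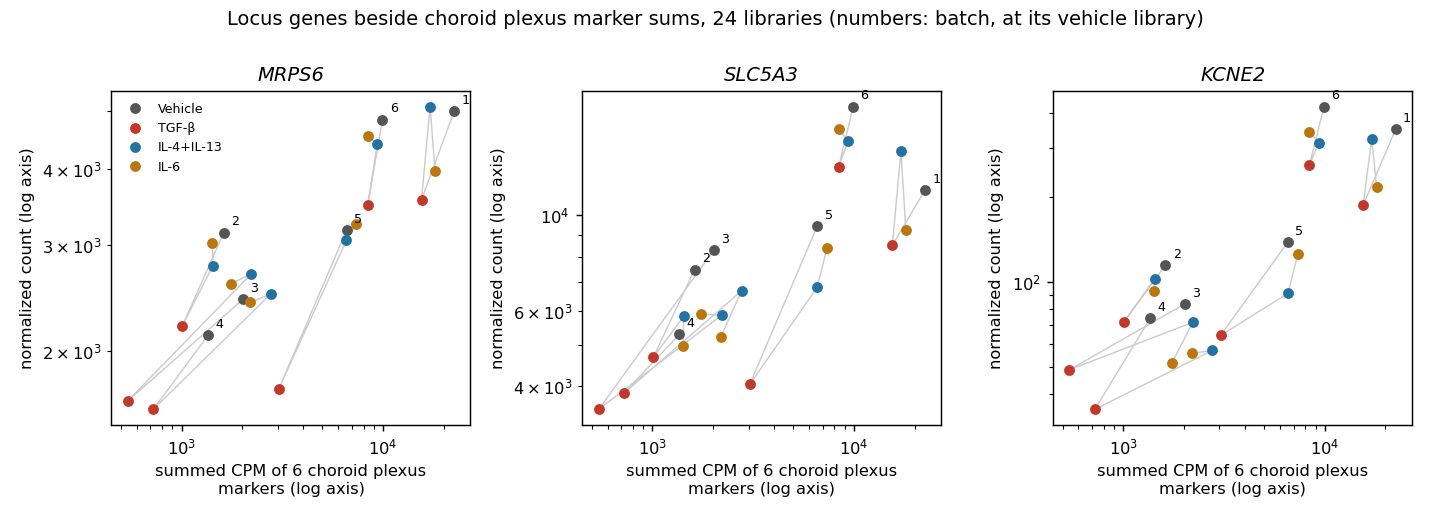
Normalized counts of the 3 locus genes (log axis) against the summed CPM of 6 choroid plexus markers (log axis) in 24 libraries, coloured by treatment, with grey lines joining the libraries of a batch and numbers at the vehicle library. TGF-β libraries lie to the left of and below the vehicle library of their batch in all 6 batches. The locus genes were chosen for being lower under TGF-β, so the lower position follows from that choice. *TTR* makes up most of the summed CPM.

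Of the other marker lists, melanocyte markers were lower in sum under TGF-β in 6 of 6 batches (median 202 CPM in vehicle, 114 under TGF-β), with *MLANA* at 0 in 3 libraries. Their sum was also lower in 5 of 6 batches under IL-4 + IL-13 (median 170 CPM) and in 5 under IL-6 (median 147 CPM). Mean counts in this list ran from 6.2 for *MLANA* to 4619 for *PMEL*, so the name of the list does not establish a cell type. At an unadjusted p under 0.05, 2 of the 5 were lower under TGF-β (3.88% of all genes), and 2 were by DESeq2's adjusted p (0.735%), *MITF* and *TYR*. Neuron markers had 0 of 6 at an unadjusted p under 0.05 under any treatment, and their sum was lower than vehicle in 2 batches under TGF-β. Fibroblast, smooth muscle, epithelium and dividing cell lists had 0 calls against vehicle by edgeR, where 0% to 0.251% of all genes were called. By DESeq2's adjusted p 1 epithelium marker was lower under IL-4 + IL-13, *CDH1* (log2 fold change -1.82, edgeR), as were 0.592% of all genes. *CDH1*, *MITF* and *TYR* were singled out after their values were seen. The part of these lists in the results was not tested either.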

How the data were processed

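The values deposited by the authors are raw read counts per gene, not normalized and with no libraries pooled. Per the labels and the paper's methods, the sequencing provider trimmed adapters with Trimmomatic 0.30 and aligned the reads to GRCh38.p14. The aligner, the counter and the strandedness are not given in the sources used here, so reads in overlaps between genes may be assigned either way. Each gene was taken by the entry with its exact symbol.

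Differences were tested with edgeR 4.0.16 (TMM, robust quasi-likelihood F test, batch and treatment as terms, total count of at least 10, p adjusted by Benjamini-Hochberg over the whole table). The fit for IL-6 held all 24 libraries, and that for the other treatments the 18 without IL-6. Calls needed an adjusted p under 0.05 together with a log2 fold change above 1 or below -1. SEs were derived from the fold change and the F statistic. DESeq2 1.42.0, other normalization, no filter, no batch term, summed entries and leaving out each batch were alternatives. Nothing says whether batches were separate thaws of the line, so p-values measure the spread between batches of 1 line.

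Batch is given in the labels and pairs the libraries: after group means were taken off, r between libraries of 1 batch had a median of 0.564 (36 pairs), and between batches -0.133 (180 pairs). The genes followed and the lists were chosen with earlier results of these data known. Of each list the text names called genes and, where fewer than 3 were called, up to 3 genes with the smallest p against vehicle and a mean count of at least 10, besides locus neighbours next to a followed gene, and for each followed gene the 3 most similar patterns. Marker genes are described by list. The result of 1 marker list is not reported here. In simulated counts with 100 genes changed by a log2 fold of 1.5, edgeR recovered 95% for TGF-β (28258 genes), 90% for IL-4 + IL-13 (28250 genes) and 98% for IL-6 (28982 genes). Changes as small as those of the locus genes under TGF-β were not simulated. The simulated spread followed a fitted trend, with no library that stood apart. These shares therefore do not measure how well such genes would be called in the real libraries.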

Additional observations from a re-analysis of the deposited data

Results flagged for a closer look

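Of 42 groups of 6 values examined (levels of the 6 genes by treatment and their within-batch differences from vehicle), 2 held a value far from the others by Dixon's ratio of the gap to the range, with a critical value of 0.625. Chance alone passes about 1 group in 20. The *MRPS6* difference under TGF-β was low in batch 5 (-0.87 on the log2 scale, the others -0.56 to -0.41), with a ratio of 0.677. The *SLC6A6* level under IL-6 was low in batch 2 (813 normalized counts, the others 1924 to 2749), with a ratio of 0.707.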

How the results depend on the processing

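All 24 log2 fold changes of the followed genes (6 genes, 4 comparisons) stayed on their side, or moved by less than the SD between batches, under all 12 alternatives, 288 values in all. Those of *SLC6A6* ranged most against vehicle, from -0.42 to -0.03 for TGF-β, from -0.67 to -0.22 for IL-4 + IL-13 and from -0.72 to -0.20 for IL-6. The SD of its within-batch differences was 0.68, 0.72 and 0.91, so for this gene the rule could hardly be broken. *AKR1B1* changed sign in some alternatives and still met the rule. Counts over all genes moved more. For TGF-β, 6 genes were called, against 90 by DESeq2, 0 without the batch term (no replicate block), 42 with IL-6 libraries in the fit, 14 with entries of a symbol summed, and 0 to 8 with 1 batch left out. For IL-4 + IL-13, 72 were called, against 170 by DESeq2, 9 without the block, 109 with IL-6 libraries in the fit, and 20 to 81 with 1 batch left out. For IL-6 it was 0 against 120 by DESeq2. For the direct comparison it was 257, against 444 by DESeq2, 23 without the block and 84 to 315 with 1 batch left out. The NFAT5 target list had 0 calls, against 2 for TGF-β and 1 for IL-4 + IL-13 by DESeq2, 1 in each with entries summed, and 0 to 1 under IL-4 + IL-13 with 1 batch left out (1 without batch 4). The sorbitol and taurine list had 0 calls under TGF-β, against 1 by DESeq2 and 1 with IL-6 libraries in the fit. In the direct comparison it had 1 call, *FMO1*, against 0 without the block and 0 to 1 with 1 batch left out (0 without batch 3, 4, 5 or 6). Locus neighbours had 0 calls under TGF-β against 1 by DESeq2, and 1 call, *RUNX1*, in the direct comparison against 0 without the block. The causes were not tested. At 32 to 484 counts per library, *KCNE2* carries the most counting error of the followed genes.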
